A study of Mus musculus with 16 samples.

Results

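The 10 genes Mgp, Ucma, Tnfrsf11b, Spp1, Cilp, Cilp2, Chad, Cytl1, Sox9 and Runx2 are genes of cartilage and of calcification. They were taken by symbol from the 31055 features counted in single cells of the mouse thoracic aorta, and all 10 were found there. Their unique molecular identifiers (UMIs, each the tag of 1 captured RNA molecule) were summed per library in 8950 vascular smooth muscle cells (VSMCs, at least 5 Myh11 UMIs and more Myh11 than Dcn), 36066 fibroblasts (at least 5 Dcn UMIs and more Dcn than Myh11) and 3357 leukocytes (at least 2 UMIs of Ptprc and Tyrobp together), of 50858 cells that passed the filters. A level is given as CPM, the UMIs of a gene per 1000000 UMIs of the same cell type in the same library.

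Each of the 16 libraries was made from the aorta of 1 male mouse of strain 129S6/SvEv, taken from the root to the left subclavian artery and sorted for living nucleated cells. All mice carried Myh11-CreER, a tamoxifen-inducible Cre that is active in smooth muscle and sits on the Y chromosome, and all received tamoxifen from 6 weeks of age. Smad3SmKO mice also carried 2 floxed alleles of Smad3, which encodes a transcription factor downstream of TGF-beta receptors, and Smad3+/+ mice did not. Some mice carried the EGFP-L10a tracer. At 10 weeks after deletion there were 2 Smad3+/+ and 2 Smad3SmKO libraries, all in batch 4 with 60 min of digestion. At 18 weeks there were 5 Smad3+/+ and 7 Smad3SmKO libraries, in batches 1 to 3 (30 min) and batches 5 and 6 (60 min), and batch 5 held Smad3SmKO libraries alone. Smad3 transcripts in VSMCs did not separate the genotypes (5.04 ± 0.501 and 6.63 ± 2.05 CPM at 10 weeks, SD, n = 2 and 2, and 7.44 ± 2.79 and 9.32 ± 4.37 CPM at 18 weeks, n = 5 and 7, Smad3+/+ first), and the tags come from the 3′ end of the transcript and need not read the deleted part, whose position was not used here. The study reported reduced Smad3 RNA (by qPCR) and protein (by immunoblot) in aortas of Smad3SmKO mice, measured apart from these libraries. Here Smad3SmKO means the libraries labelled so.

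Cartilage is a matrix of collagens and proteoglycans laid down by chondrocytes, and bone forms where such a matrix, or one made by osteoblasts, takes up calcium phosphate. Arterial walls are bathed in calcium and phosphate and stay soft with the help of inhibitors, among them Mgp, and cells of calcified arteries can express genes of cartilage and bone. Sox9 is the main transcription factor of chondrocytes and Runx2 that of osteoblasts. Mgp and Ucma encode small vitamin K-dependent proteins that hold back mineral, Tnfrsf11b encodes osteoprotegerin, the decoy receptor that keeps RANKL from osteoclast precursors, and Spp1 encodes osteopontin, an acidic phosphoprotein that binds mineral and integrins. Chad (chondroadherin), Cilp and Cilp2 (cartilage intermediate layer proteins) and Cytl1 (a small secreted protein) are made by chondrocytes.

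In build GRCm38 (GENCODE annotation), Mgp lies on chr6:136872435-136875823, Spp1 on chr5:104435118-104441050, Sox9 on chr11:112782224-112787760, Cilp on chr9:65265180-65280605, Cilp2 on chr8:69880369-69887687, Cytl1 on chr5:37735519-37739820, Ucma on chr2:4976122-4985748 and Tnfrsf11b on chr15:54250619-54278484. Chad, on chr11:94565047-94569127, overlaps Acsf2 on the opposite strand, and Runx2, on chr17:44495987-44814797, overlaps Supt3 and antisense transcripts on the opposite strand, so that reads could be split wrongly there if the strand was not used. Spp1 overlaps Gm42793, and Runx2 overlaps n-R5s27, on the same strand, where the strand cannot tell reads apart.

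The libraries held between 281192 and 18903689 UMIs in VSMCs (22 to 1706 cells), 4755848 and 41510276 in fibroblasts (196 to 5505 cells) and 142194 and 5936682 in leukocytes (13 to 948 cells). The 8 markers of its own type summed to 37450 to 74400 CPM in VSMCs, 26750 to 48170 CPM in fibroblasts and 10230 to 32130 CPM in leukocytes. The fibroblast markers also summed to 2558 to 5133 CPM in VSMCs and 1145 to 5337 CPM in leukocytes, and the VSMC markers to 563 to 11860 CPM in fibroblasts. Of the cells, 315 passed both the fibroblast and the leukocyte gate and 68 both the VSMC and the leukocyte gate. Smad3+/+ replicates 4 and 5 at 18 weeks shared 3507 deposited barcodes, of which 2 were kept in both libraries and 3020 in a single library. Sharing also crossed the genotypes. Smad3+/+ replicate 5 and Smad3SmKO replicate 5 at 18 weeks shared 920, of which 7 were kept in both and 866 in a single library. Of all deposited cells, 11934 had a barcode found in 2 or more libraries, and 632 kept cells had a barcode kept in 2 or more. GFP UMIs went against the tracer label in 4 libraries: both Smad3SmKO libraries of 10 weeks are labelled as without the tracer and held 246 and 165 GFP UMIs, and Smad3+/+ replicates 4 and 5 of 18 weeks are labelled as with it and held none. By the UMIs, all 4 libraries of 10 weeks held GFP, and at 18 weeks Smad3SmKO replicates 5, 6 and 7 alone, and the part of the tracer in the genotype values was not tested. Without each of these 4 libraries in turn, none of the 10 genes was called by genotype except Chad in VSMCs at 18 weeks without Smad3+/+ replicate 4 (log2 fold change -6.94, edgeR's quasi-likelihood test, Benjamini-Hochberg adjusted p = 0.0121). Replicate 7 of Smad3SmKO at 18 weeks stood apart, with 196 fibroblasts and 13 leukocytes.

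Windows of 250 bases before the transcription start of 5 genes are shown because Runx2 is itself one of the 10 genes: those of Spp1, Ucma and Cilp hold the letters of the RUNX motif (ACCACA, or TGTGGT on the other strand) and those of Chad and Cytl1 do not. The RefSeq table of build GRCm38.p6 had promoters for 7 of the 10 genes, not for Mgp, Sox9 or Tnfrsf11b, and the 5 shown are those with a window wholly before the annotated gene. Each is written 5′ to 3′ with the motif in capitals.
Spp1, chr5:104434861-104435110, plus strand: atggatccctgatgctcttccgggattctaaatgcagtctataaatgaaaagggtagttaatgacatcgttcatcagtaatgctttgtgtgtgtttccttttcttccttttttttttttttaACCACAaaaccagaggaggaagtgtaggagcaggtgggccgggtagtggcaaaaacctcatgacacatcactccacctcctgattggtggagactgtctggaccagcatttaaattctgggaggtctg
Ucma, chr2:4975872-4976121, plus strand: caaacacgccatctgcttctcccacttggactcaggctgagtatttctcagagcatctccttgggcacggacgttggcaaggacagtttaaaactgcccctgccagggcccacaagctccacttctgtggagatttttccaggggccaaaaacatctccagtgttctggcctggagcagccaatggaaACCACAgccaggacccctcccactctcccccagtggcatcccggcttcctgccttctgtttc
Cilp, chr9:65264930-65265179, plus strand: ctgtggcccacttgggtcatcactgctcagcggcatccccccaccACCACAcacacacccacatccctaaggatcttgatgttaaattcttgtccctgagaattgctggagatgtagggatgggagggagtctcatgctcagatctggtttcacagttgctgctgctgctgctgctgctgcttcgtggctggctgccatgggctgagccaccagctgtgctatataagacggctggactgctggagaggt
Chad, chr11:94564797-94565046, plus strand: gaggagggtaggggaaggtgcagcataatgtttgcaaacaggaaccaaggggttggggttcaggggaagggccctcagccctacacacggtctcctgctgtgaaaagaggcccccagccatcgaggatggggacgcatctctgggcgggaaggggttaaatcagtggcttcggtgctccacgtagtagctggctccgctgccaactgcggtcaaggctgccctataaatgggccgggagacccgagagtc
Cytl1, chr5:37735269-37735518, plus strand: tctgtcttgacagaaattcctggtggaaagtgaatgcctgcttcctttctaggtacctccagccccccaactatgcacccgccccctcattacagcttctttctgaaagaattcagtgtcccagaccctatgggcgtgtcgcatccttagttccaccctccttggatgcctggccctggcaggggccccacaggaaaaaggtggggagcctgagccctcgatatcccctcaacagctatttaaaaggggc
The motif began 62 bases before the start of Ucma and 205 before that of Cilp, and the window of Runx2 itself held it at 80 bases. The window of Cilp2 and that of a second start of Spp1 did not hold it. Of 32544 promoters in the table, 4544 held it in a window of the same length. The letters of a SMAD motif (CAGAC or GTCTG) were found in the windows of Spp1, Cytl1 and Cilp2 and in 42.2% of all promoters, and those of a SOX motif (ACAAT or ATTGT) in the windows of Cilp2 and Runx2 and in 27.4% of all. No match of these motifs overlapped another. A match describes letters, not a bound site, and the absence of one says only that these letters are not in the window.

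All 10 genes were higher in fibroblasts than in VSMCs (edgeR's quasi-likelihood test with the library as a block, Benjamini-Hochberg adjusted p under 0.05 over 16041 genes). Of all genes tested, 41.7% were called higher in fibroblasts and 27.7% lower, and the median log2 fold change was 4.43 over the 10 genes and 0.15 over all genes. In sums over a cell type, more cells with a transcript and more transcript per cell give the same value. The plot of levels by library shows both groups of each genotype and time.

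**Figure D1:**
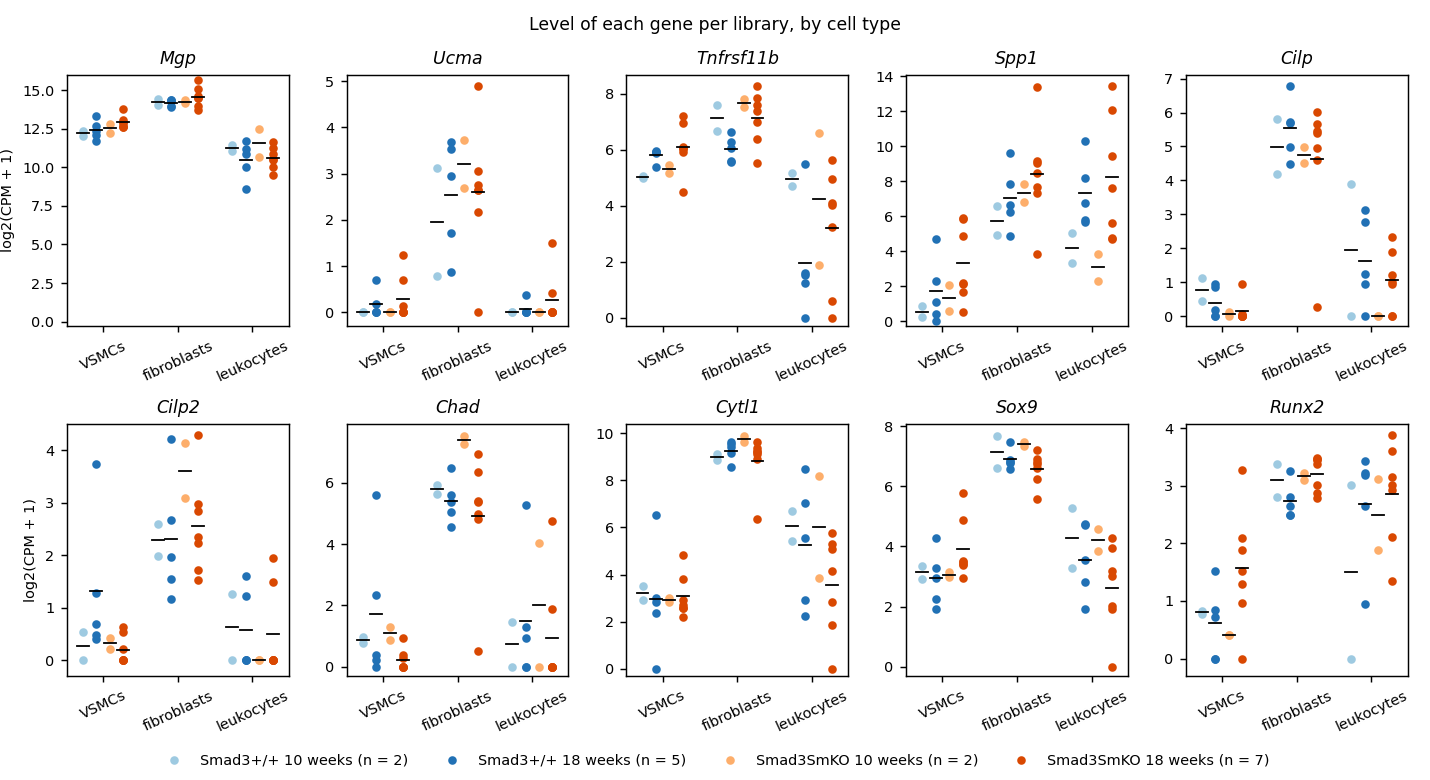
Level of each of the 10 genes as log2(CPM + 1) (vertical axes, one scale per panel) in VSMCs, fibroblasts and leukocytes (horizontal axes). Each point is 1 library, colored by genotype and weeks after deletion, and each bar is the mean of a group's points. Fibroblast points stand above VSMC points in all 10 panels on average, leukocyte points fall below fibroblast points in 8, and Spp1 and Runx2 overlap between leukocytes and fibroblasts.

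Among the inhibitors of mineral, a UMI of Mgp was found in 99.8% of VSMCs, 99.7% of fibroblasts and 77.3% of leukocytes in no other gate, the last at a pooled level of 1.81% of that in fibroblasts (median 7954, 8459 and 5507 UMIs per cell). Its level over the 16 libraries had a lowest value of 3346, a median of 6377 and a highest of 14000 CPM in VSMCs, and 13350, 20790 and 51520 CPM in fibroblasts. Each library was higher in its fibroblasts, although the lowest fibroblast level lay below the highest VSMC level, and the log2 fold change was 1.71 (SE 0.10, 3.28-fold, edgeR's quasi-likelihood test, Benjamini-Hochberg adjusted p = 4.39e-12). Ucma gave 10 UMIs in all VSMCs together, and in fibroblasts 0, 5.58 and 28.8 CPM as lowest, median and highest, higher in 15 of 16 libraries and listed at 0 in both cell types of the other. Its log2 fold change was 5.22 (SE 0.29). Tnfrsf11b differed least between the 2 cell types. It lay at 21.3, 60.1 and 148 CPM in VSMCs and 45.5, 113 and 309 CPM in fibroblasts (lowest, median and highest), so that the ranges overlapped widely. Fibroblasts were higher in 14 of 16 libraries, by a log2 fold change of 1.04 (SE 0.24, 2.05-fold, edgeR's quasi-likelihood test, Benjamini-Hochberg adjusted p = 0.00072). A UMI of Tnfrsf11b was found in 25.7% of VSMCs and 19.0% of fibroblasts, and in 8.09% and 9.58% of them when each cell was thinned to 2000 UMIs.

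The level of Spp1 spread widely between libraries. Its lowest, median and highest levels were 0, 2.65 and 58.4 CPM in VSMCs and 13.4, 182 and 10430 CPM in fibroblasts, and every library was higher in its fibroblasts (log2 fold change 5.74, SE 0.39, 53.3-fold). The highest fibroblast value was that of Smad3SmKO replicate 7 at 18 weeks, and the next was 782 CPM. That library's 196 fibroblasts held 49588 of the 149323 Spp1 UMIs of all fibroblasts. Of the 1825 Spp1 UMIs of VSMCs, 919 were in the 8882 cells that passed no other gate. Transcripts of the chondrocyte proteins were few in VSMCs. Cilp gave 22 UMIs in all VSMCs and 0.21, 35.9 and 109 CPM in fibroblasts (log2 fold change 6.94, SE 0.22). Cilp2 gave 39 UMIs in all VSMCs and 1.25, 4.56 and 18.4 CPM in fibroblasts (3.63, SE 0.45). Chad reached 0.42, 44.6 and 185 CPM in fibroblasts, with 139 UMIs in all VSMCs (5.33, SE 0.46). A UMI of Chad was found in 0.637% of VSMCs (median 7954 UMIs per cell) and in 0.504% of leukocytes in no other gate (median 5507 UMIs). Cytl1 lay at 80.1, 600 and 943 CPM in fibroblasts against 0, 6.35 and 90.5 CPM in VSMCs (6.07, SE 0.43). For these 4 genes each library was higher in its fibroblasts.

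Of the 2 transcription factors, Sox9 was the more widespread. Its lowest, median and highest levels were 2.83, 8.99 and 54.1 CPM in VSMCs and 47.3, 111 and 204 CPM in fibroblasts, and the lowest fibroblast library lay just under the highest VSMC library. The log2 fold change was 3.55 (SE 0.20, 11.7-fold). Runx2 lay at 0, 0.784 and 8.66 CPM in VSMCs, where it gave 84 UMIs in all, and at 4.63, 7.32 and 10.2 CPM in fibroblasts, and its log2 fold change was 2.71 (SE 0.25, 6.55-fold). Both were higher in the fibroblasts of each of the 16 libraries. These 10 calls held in all 8 alternative settings and without each of the 16 libraries.

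Fibroblasts did not share these transcripts evenly. A UMI of Mgp was found in 99.7% of them, of Sox9 in 42.5%, of Cytl1 in 27.9%, of Tnfrsf11b in 19.0%, of Cilp in 10.3%, of Spp1 in 8.25%, of Runx2 in 5.93%, of Chad in 5.39%, of Ucma in 2.47% and of Cilp2 in 1.48%. The 1% of fibroblasts with the most UMIs of a gene held 88.9% of all fibroblast UMIs of Spp1, and 1 fibroblast alone held 4964 of them. That share was 92.7% for Cilp2, 80.7% for Ucma, 70.6% for Chad and 47.4% for Cilp, while it was 37.8% for Tnfrsf11b, 31.0% for Cytl1, 24.8% for Runx2, 13.2% for Sox9 and 10.96% for Mgp. A gene found in few cells has a high share by construction, and only 534 fibroblasts held a UMI of Cilp2 and 890 of Ucma.

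Which of these genes were found in the same fibroblasts was read after thinning each cell to 2000 UMIs, which evens out depth. A library is counted where at least 10 of its fibroblasts held the first gene. Chad, Cilp2, Spp1, Cytl1 and Tnfrsf11b were found together. Of 1210 fibroblasts with Chad, 14.8% held Cilp2 against 0.247% of those without, 62.0% held Cytl1 against 17.6%, 27.4% held Spp1 against 3.75% and 30.5% held Tnfrsf11b against 8.86%. Each of these shares was higher in 15 of 15 libraries. Of 265 fibroblasts with Cilp2, 67.5% held Chad and 60.0% held Spp1, against 2.88% and 4.13% of the others, in 9 of 9 libraries. Of 6875 fibroblasts with Cytl1, 18.5% held Tnfrsf11b against 7.48% (15 of 15 libraries).

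Ucma and Cilp were not found with Tnfrsf11b in this way. Of 344 fibroblasts with Ucma, 34.6% held Sox9 against 17.7% of the others (10 of 10 libraries), 5.52% held Tnfrsf11b against 9.62% (higher in 1 of 10) and 0.291% held Runx2 against 1.40%, the first of these being 1 cell. Chad was found in 11.9% of them against 3.27% (higher in 7 of 10). Of 1835 fibroblasts with Cilp, 5.61% held Tnfrsf11b against 9.80%, and 15.7% held Cytl1 against 19.2% (lower in 13 of 15 libraries), while 1.80% held Cilp2 against 0.678% (higher in 13 of 15). Sox9 itself was nearly as frequent with Chad as without, at 21.5% and 17.8%, and higher in 9 of 15 libraries. The 10 genes were counted in the same cells, so these shares describe the cells and carry no test.

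**Figure D2:**
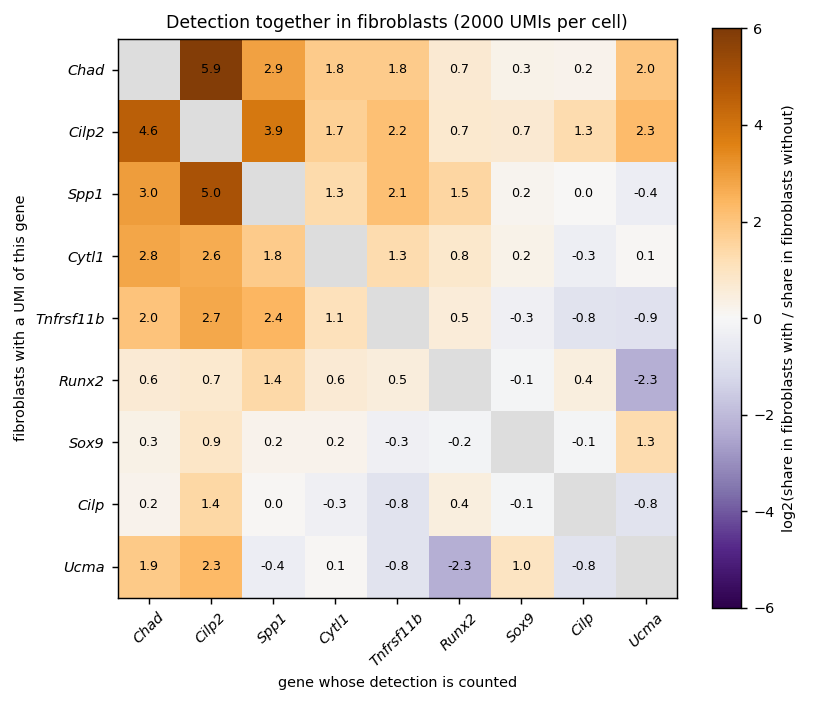
Detection of 2 of 9 genes (without Mgp, which nearly all cells held) in the same fibroblast, with each cell thinned to 2000 UMIs. Rows give the gene that defines the fibroblasts with and without it, columns the gene whose detection is counted, and color and number the log2 of the share with over the share without. Chad, Cilp2 and Spp1 form the darkest block, and the rows of Ucma and Cilp are violet against Tnfrsf11b.

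Other genes of cartilage and bone differed between the same fibroblasts. The values are CPM from the full counts of cells grouped as above. Fibroblasts with Chad held Acan (aggrecan, the large proteoglycan of cartilage) at 35.4 against 0.66 CPM in those without (higher in 15 of 15 libraries), Col2a1 (the main collagen of cartilage) at 20.4 against 0.389 CPM (12 of 15) and Comp (cartilage oligomeric matrix protein) at 2808 against 368 CPM (15 of 15). The bone genes Ibsp (bone sialoprotein, 29.3 against 0.174 CPM) and Bglap (osteocalcin, 43.0 against 1.25 CPM) were also higher in sum, but only in 8 and 7 of 15 libraries. Alpl, the alkaline phosphatase of mineralizing cells, went the other way, at 35.3 against 59.8 CPM and lower in 14 of 15. Fibroblasts with Cytl1 held Dlx5, a factor of bone formation, at 9.22 against 2.00 CPM and Ank, a pyrophosphate transporter that limits mineral, at 92.2 against 37.0 CPM, both higher in 15 of 15 libraries, and both were also higher with Chad (19.9 against 2.80 CPM and 186.9 against 42.7 CPM, 15 of 15) and with Tnfrsf11b (16 of 16). Those with Tnfrsf11b held Sost (sclerostin) at 75.4 against 14.6 CPM and Phex at 22.6 against 6.18 CPM, in 16 of 16. Both genes were also higher with Chad (43.8 against 19.7 CPM in 13 of 15 and 20.7 against 7.32 CPM in 15 of 15) and with Cytl1 (12 and 15 of 15). Sost was far higher in VSMCs than in fibroblasts, with means over the libraries of 740 and 34.1 CPM. The part of VSMC transcripts in the Sost values of these fibroblasts was not tested.

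In fibroblasts with Ucma, Hapln1, the link protein of aggrecan, lay at 45.7 against 8.89 CPM (10 of 10 libraries), Matn4, a matrilin, at 34.7 against 9.10 CPM (10 of 10) and Col9a1 at 26.2 against 2.90 CPM (9 of 10). These 3 were higher with Chad as well (29.6 against 8.59, 26.6 against 8.79 and 10.6 against 2.88 CPM, each in 14 of 15 libraries) and with Cilp2 (8 or 9 of 9 libraries). Acan, which was higher with Chad, lay at 1.93 against 1.78 CPM with Ucma, from 7 UMIs (lower in 7 of 10). Alpl lay at 17.6 against 59.5 CPM (lower in 10 of 10) and Col2a1 and Ibsp gave 0 UMIs in them. Those with Cilp held Prg4 (lubricin) at 1893 against 1001 CPM (13 of 15) and the phosphate carrier gene Slc20a1 at 29.5 against 16.6 CPM (14 of 15), and no UMI of Ibsp. Prg4 was also higher with Ucma (2573 against 1032 CPM, 10 of 10) and with Chad (1779 against 1023 CPM, 13 of 15), and Slc20a1 with Chad (36.1 against 16.6 CPM, 13 of 15). With Cilp2 they lay at 3503 against 1028 CPM (9 of 9) and 73.2 against 16.8 CPM (8 of 9). Acan and Col2a1 did not follow Cilp from library to library, being higher with it in 7 and 3 of 15.

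Leukocytes held less of most of the 10 genes. Against fibroblasts, 8 of 10 were lower (edgeR's quasi-likelihood test, Benjamini-Hochberg adjusted p under 0.05), with 71.3% of 16187 genes called (28.5% higher and 42.8% lower), and Spp1 and Runx2 were not called. The median log2 fold change of the 10 was -3.40, and that of all genes -0.22. In leukocytes, Mgp had a lowest level of 389, a median of 1850 and a highest of 5742 CPM, below the fibroblasts of the same library in 16 of 16, and its log2 fold change was -3.53 (SE 0.24). The others that were lower had log2 fold changes from -4.34 (Ucma, SE 0.40) to -2.96 (Cilp2, SE 0.43). UMIs of these 8 genes in leukocytes were compared with those of fibroblast markers there. In the 2974 leukocytes that passed no other gate (median 5507 UMIs per cell), each of the 8 stood at 0.558% to 2.15% of its level in fibroblasts (median 8459 UMIs), and the 8 fibroblast markers stood at 0.674% to 3.08%. Of the 268 Chad UMIs of leukocytes, 252 were in the 315 cells that also passed the fibroblast gate. Spp1 stood at 357% and Runx2 at 113%. Both pooled values leaned on Smad3SmKO replicate 5 of 18 weeks, which held 23306 of the 31490 Spp1 UMIs and 64 of the 158 Runx2 UMIs: without it, an alternative chosen after seeing the data, Spp1 stood at 115.5% and Runx2 at 84.2%. Without any other single library the values lay between 343% and 507.5% and between 106% and 124%.

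**Figure D3:**
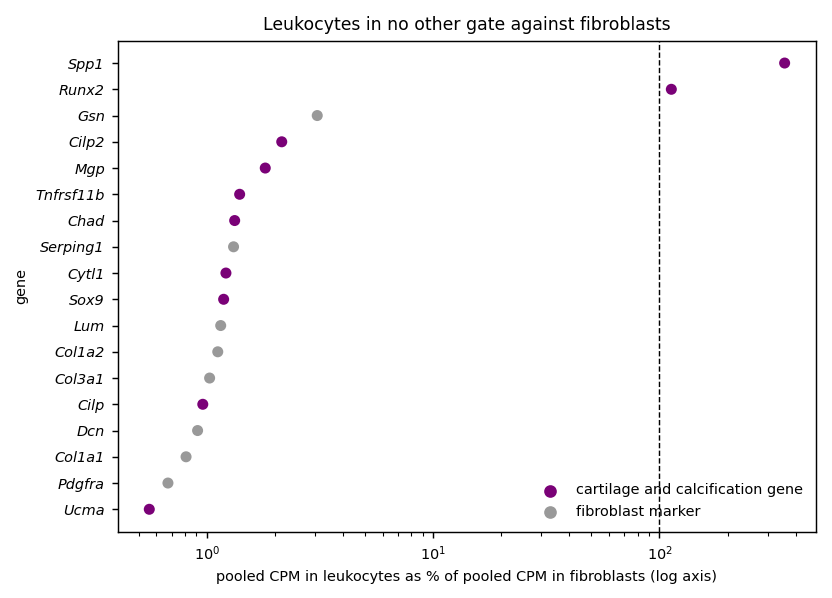
Pooled CPM of each gene in leukocytes that passed no other gate, as percent of its pooled CPM in fibroblasts (log axis). Purple points are the 10 cartilage and calcification genes and grey points 8 fibroblast markers, and the dashed line marks equal levels. Of the purple points, 7 lie within the range of the grey ones, Ucma (0.558%, from 1 UMI) lies just below it, and Spp1 and Runx2 lie beyond the line at 357% and 113%, or at 115.5% and 84.2% without Smad3SmKO replicate 5 of 18 weeks.

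Spp1 was found in leukocytes as well as in fibroblasts. A UMI of it was found in 19.9% of the leukocytes in no other gate (95% Wilson interval 18.5 to 21.4%, counting error only) and in 8.25% of fibroblasts. Per library, its level in leukocytes was 8.83 and 32.2 CPM in Smad3+/+ and 13.4 and 3.82 CPM in Smad3SmKO at 10 weeks. At 18 weeks it was 1259, 54.0, 49.1, 105 and 283 CPM in Smad3+/+ replicates 1 to 5, and 24.6, 192 and 10950 CPM as lowest, median and highest of the 7 Smad3SmKO libraries. All 10-week libraries but 1 lay below every 18-week library, but time after deletion and batch cannot be told apart, and the highest value came from 13 cells. Compared with fibroblasts, the log2 fold change of Spp1 was -0.48 with a 95% interval of -1.67 to 0.71, and leukocytes were the higher of the pair in 7 of 16 libraries. The Spp1 of leukocytes lay in cells with macrophage markers (1670 CPM in 1854 cells, found in 22.0%) and with neutrophil markers (1278 CPM in 805 cells, 15.5%), and the 89 cells with lymphocyte markers gave 5 UMIs. Without Smad3SmKO replicate 5 of 18 weeks the first 2 levels were 546 CPM (16.7% of cells) and 291.5 CPM (9.06%).

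Runx2 in leukocytes differed from fibroblasts by a log2 fold change of -0.11 (95% interval -0.62 to 0.40), with 5 of 16 libraries higher in leukocytes. Its level was 21.7 CPM in cells with neutrophil markers, 15.4 CPM in those with lymphocyte markers and 3.88 CPM in those with macrophage markers, over 56, 13 and 63 UMIs. Against VSMCs, leukocytes were higher in Spp1 (log2 fold change 5.64, SE 0.36), Runx2 (2.31, SE 0.45), Cilp (3.21, SE 0.55) and Cytl1 (2.67, SE 0.54) and lower in Mgp (-1.85, SE 0.27) and Tnfrsf11b (-2.03, SE 0.42), 6 of 9 tested, with 74.6% of 13942 genes called. Of all genes, 33.7% were called higher and 40.9% lower. The cells that passed 2 gates bore on this comparison. Without them Cytl1 was no longer called (log2 fold change 0.04, edgeR's quasi-likelihood test, Benjamini-Hochberg adjusted p = 0.939), Cilp had too few UMIs to be tested, and Sox9 turned from 0.39 to -2.76, while Spp1, Runx2, Mgp and Tnfrsf11b kept their calls.

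The remaining genes of these pathways were read from 5 lists of 63 genes, of which 62 are among the features. In fibroblasts against VSMCs, 38 of 56 tested were higher and 11 lower (69.4% of all genes were called in either direction). Of the cartilage matrix list, 17 of 19 were higher and 1 was lower, with a median log2 fold change of 4.44. The leading higher ones were Cnmd (chondromodulin, 7.74, SE 0.30), Prg4 (7.22, SE 0.23), Epyc (epiphycan, 6.86, SE 0.15), Col11a1 (6.80, SE 0.36), Matn3 (6.35, SE 0.37) and Clec3a (6.32, SE 0.78). Of the bone formation list, 8 of 15 were higher and 3 lower, led by Tnfsf11 (RANKL, the ligand that Tnfrsf11b binds, 7.73, SE 0.59) and Bglap (6.10, SE 0.40). Tnfsf11 gave 1 UMI in VSMCs and 540 in fibroblasts. Some of these genes were near the floor in fibroblasts too, with medians of 0.692 CPM (Tnfsf11), 0.615 CPM (Bglap) and 0.193 CPM (Clec3a). Sost, of the bone formation list, had a mean of 34.1 CPM in fibroblasts and 740 CPM in VSMCs. Of 12 genes of calcification control 9 were higher and 2 lower, of 3 transcription factors 2 and 1, and of 7 receptors of osteopontin 2 and 4. In leukocytes against fibroblasts, 8 of 57 were higher and 44 lower, and the 2 most raised were Tnfrsf11a (the RANK receptor of RANKL, 5.57, SE 0.34) and Itga4 (an integrin chain that binds osteopontin, 5.16, SE 0.27).

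The study placed VSMCs along the aorta by transcripts of its proximal and distal parts. Here VSMCs with more UMIs of Notch3 and Enpep than of Ptprz1 and Tes made a Notch3-Enpep side (888 cells). Those with fewer made a Ptprz1-Tes side (5953 cells), in the 14 libraries with at least 10 cells on both. VSMCs with equal sums, among them those with no UMI of these genes, were left out. Sox9 was higher on the Notch3-Enpep side and Tnfrsf11b was lower there. The lowest, median and highest levels of Sox9 were 2.40, 10.4 and 28.5 CPM on the Notch3-Enpep side and 0, 5.76 and 10.8 CPM on the other. It was higher in 12 of 14 libraries, with a log2 fold change of 0.93 (SE 0.22, 1.90-fold, edgeR's quasi-likelihood test with the library as a block, Benjamini-Hochberg adjusted p = 0.00212), over 103 and 331 UMIs. Tnfrsf11b lay at 15.1, 33.2 and 91.5 CPM on the Notch3-Enpep side and 28.5, 64.4 and 152 CPM on the other, so the ranges overlapped but 12 of 14 libraries were lower on the first. Its log2 fold change was -0.84 (SE 0.13, 1.79-fold lower, edgeR's quasi-likelihood test, Benjamini-Hochberg adjusted p = 8.29e-06).

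These were 2 of the 6 genes tested, with 20.8% of 12251 genes called (8.82% higher and 12% lower on the Notch3-Enpep side). Both calls held in all 9 alternatives, among them the Smad3+/+ libraries alone (1.14 and -1.07), and without each of the 14 libraries. Mgp lay at 3526, 5360 and 17440 CPM on the Notch3-Enpep side and 3232, 5911 and 11620 CPM on the other, with a log2 fold change of 0.03 (95% interval -0.18 to 0.25). By in situ hybridization, the study found Mgp enriched in the root and proximal ascending aorta. It also found little overlap between cells with Mgp and cells with Notch3 or Enpep. Between cells with Mgp and those with Ptprz1 or Tes it reported very little. Here a UMI of Mgp was found in 99.8% of VSMCs, so nearly all cells of both sides held it. The value compares the level of Mgp between sides set by other genes. No cell was placed along the aorta here, so it does not measure the place of Mgp. Spp1 (-0.77, 95% interval -1.36 to -0.18, edgeR's quasi-likelihood test, Benjamini-Hochberg adjusted p = 0.0555), Cytl1 (-0.57) and Runx2 (-0.16) were not called. Spp1 was called without Smad3+/+ replicate 4 or Smad3SmKO replicate 6 at 18 weeks or Smad3SmKO replicate 1 at 10 weeks, with adjusted p as low as 0.0142. It was also called in 3 of 8 alternatives: all deposited cells (-1.83, edgeR's quasi-likelihood test, Benjamini-Hochberg adjusted p = 7.68e-05), no filter on low counts (-0.78) and stricter gates (-1.26). Over the alternatives its log2 fold change ranged from -1.83 to 0.17. Of the 63 listed genes, 8 of 38 tested were higher on the Notch3-Enpep side and 11 lower. Among them were Bmp2 (1.97, SE 0.16), a growth factor of bone formation, Acan (1.93, SE 0.26), Phex (1.46, SE 0.30) and Sox5, a partner of Sox9 in chondrocytes (1.13, SE 0.25), on the higher side, and Ibsp (-3.15, SE 0.79), Hapln1 (-2.83, SE 0.67), Dlx5 (-1.79, SE 0.44) and Sost (-1.70, SE 0.15) on the lower. All 3 transcription factors tested were higher.

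**Figure D4:**
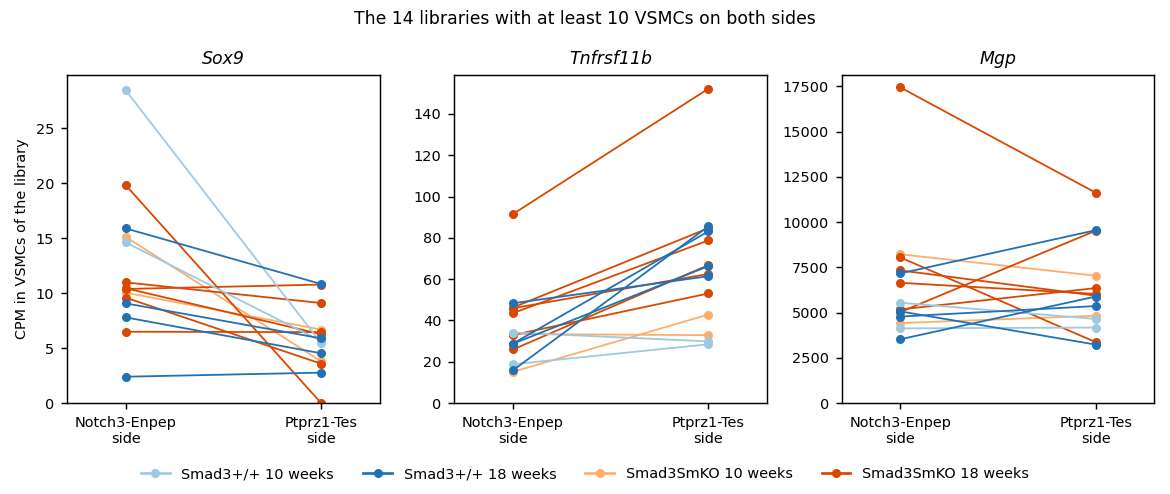
CPM of Sox9, Tnfrsf11b and Mgp (vertical axes, from 0) in the VSMCs of each library with more Notch3 and Enpep UMIs or more Ptprz1 and Tes UMIs (horizontal axes). Each line joins the 2 values of 1 of 14 libraries, colored by genotype and time. Sox9 lines fall to the right in 12 of 14 libraries, Tnfrsf11b lines climb in 12 of 14, and Mgp lines go either way, 7 and 7.

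To ask whether the 10 genes depended on Smad3 in smooth muscle, the genotypes were compared within batches in one model of all 16 libraries. Smad3SmKO replicates 5 and 7 of 18 weeks form batch 5, which has no control. They therefore inform the spread of the model and not the log2 fold changes at 18 weeks. Ranges and counts of Smad3SmKO libraries at 18 weeks, given below, do include them. None of the 10 was called in VSMCs, fibroblasts or leukocytes at 10 weeks or 18 weeks, nor was any difference between the 2 times (edgeR's quasi-likelihood test, Benjamini-Hochberg adjusted p under 0.05). In VSMCs, 0 of 12569 genes were called at 10 weeks (0.0%) and 4 at 18 weeks (0.0318%), and 1 for the difference between times (0.00796%). In fibroblasts 0 of 15688 and in leukocytes 0 of 11629 genes were called (0.0%) in each. DESeq2 called 1, 10 and 2 genes in VSMCs in the same order, 3, 3 and 1 in fibroblasts and 4, 3 and 3 in leukocytes, none of them among the 10. At an unadjusted p under 0.05, the model had 0, 4 and 3 of 7 genes tested in VSMCs (1.88%, 4.81% and 2.58% of all genes), 0, 2 and 0 of 10 in fibroblasts (0.918%, 2.65% and 1.03%) and 1, 1 and 0 of 8 in leukocytes (2.99%, 1.63% and 3.37%).

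**Figure D5:**
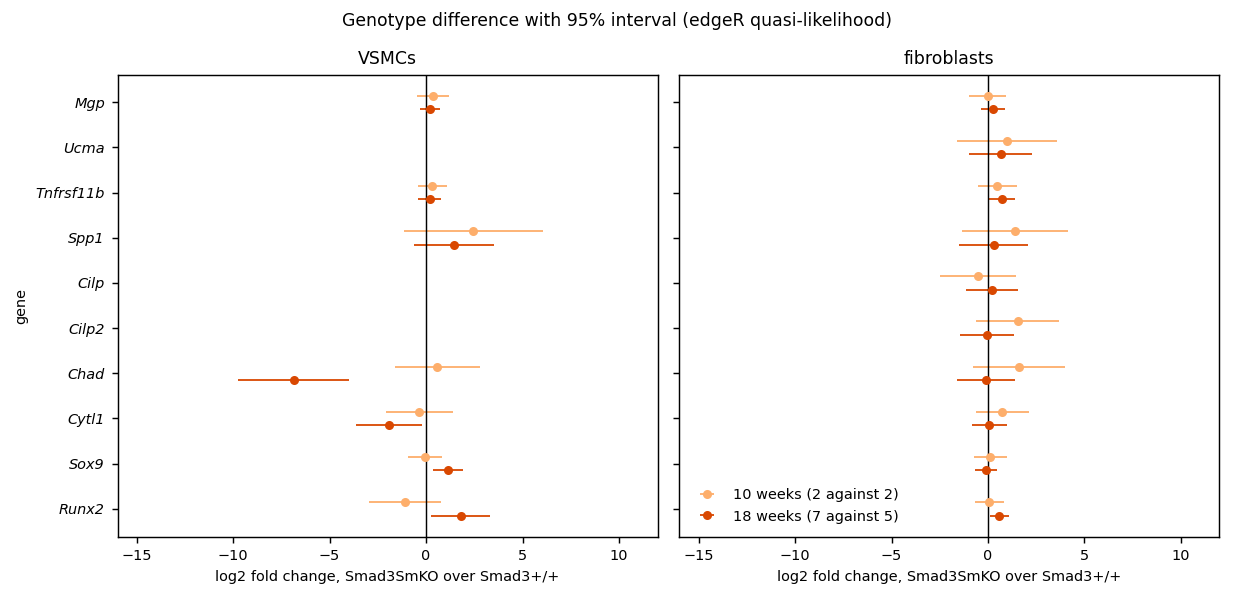
Log2 fold change of Smad3SmKO over Smad3+/+ (horizontal axes) for each gene tested (vertical axis), in VSMCs (left) and fibroblasts (right), at 10 weeks (2 against 2 libraries) and 18 weeks (7 against 5). Points are estimates and lines 95% intervals. Smad3SmKO replicates 5 and 7 of 18 weeks (batch 5, no control) inform the spread and not the estimates. Most intervals cross 0, none of the genes passed adjustment over all genes, and the point of Chad in VSMCs at 18 weeks rests on 1 control library.

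In VSMCs at 18 weeks, Mgp was 10410, 4426, 6433, 5226 and 3346 CPM in Smad3+/+ replicates 1 to 5, and 6234, 7300 and 14000 CPM as lowest, median and highest in the 7 Smad3SmKO libraries. Only replicate 7 lay above every control, and the log2 fold change was 0.20 (95% interval -0.32 to 0.73). Tnfrsf11b was 60.4, 58.7, 41.0, 60.4 and 61.7 CPM in the same controls and 21.3, 66.1 and 148 CPM in Smad3SmKO. Of the latter, 5 lay above every control and 1 below, and the log2 fold change was 0.19 (95% interval -0.40 to 0.78). Sox9 was 3.77, 18.3, 2.83, 8.79 and 6.69 CPM in the controls and 6.78, 10.25 and 54.1 CPM in Smad3SmKO. The groups overlapped, with 2 Smad3SmKO libraries above every control, and in each of the 4 batches with both genotypes the Smad3SmKO mean was the higher. Smad3SmKO over Smad3+/+ came to 1.16 on the log2 scale (SE 0.37, unadjusted p = 0.00642 and Benjamini-Hochberg adjusted p = 0.968 by edgeR's quasi-likelihood test). The libraries held between 2 and 180 UMIs of it, and 1 VSMC held 96.

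Runx2 was 0, 1.86, 0, 0.651 and 0.786 CPM in the controls and 0, 1.86 and 8.66 CPM in Smad3SmKO, with no more than 18 UMIs in any library, and its log2 fold change was 1.80 (SE 0.72, unadjusted p = 0.0235 and Benjamini-Hochberg adjusted p = 1.0 by edgeR's quasi-likelihood test), higher in 3 of 4 batches. Chad and Cytl1 were each decided by Smad3+/+ replicate 1, a library of 97 VSMCs. Chad was 47.2, 0.31, 0, 0.163 and 4.06 CPM in the controls and at most 0.899 CPM in Smad3SmKO, where 4 libraries gave no UMI. The 50 Chad UMIs of replicate 1 equal the highest count of Chad in any single VSMC, so that 1 cell held them all. Its log2 fold change of -6.86 (SE 1.35, edgeR's quasi-likelihood test, Benjamini-Hochberg adjusted p = 0.287) became -2.60 without that library. Cytl1 was 90.5, 7.14, 0, 6.18 and 4.19 CPM in the controls and 3.56, 5.45 and 27.1 CPM in Smad3SmKO, with a log2 fold change of -1.92 (SE 0.81), which turned to 0.38 without replicate 1. Spp1 was 24.5, 0.31, 0, 1.14 and 3.93 CPM in the controls and 0.45, 3.56 and 58.4 CPM in Smad3SmKO, where replicates 5, 6 and 7 lay above every control and the other 4 did not. Replicates 5 and 7 are the batch that holds no control. Its log2 fold change of 1.45 (95% interval -0.62 to 3.52) was -3.47 without Smad3SmKO replicate 6, and 3.57 without Smad3+/+ replicate 1, where it passed the threshold (edgeR's quasi-likelihood test, Benjamini-Hochberg adjusted p = 0.0431).

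For none of the 7 genes tested in VSMCs were the genotypes separate at 18 weeks, and for 0.183% of all genes they were. At 10 weeks in VSMCs, Mgp was 4227 and 5172 CPM in Smad3+/+ and 7227 and 4825 CPM in Smad3SmKO, and Sox9 6.66 and 9.18 against 7.83 and 6.86 CPM. Tnfrsf11b was 31.2 and 32.6 against 35.4 and 43.5 CPM and Runx2 0.720 and 0.782 against 0.330 and 0.335 CPM, the only ones of the 7 tested whose groups did not overlap. Of all genes, 28.5% did not overlap at 2 against 2. The median log2 fold change of the 7 was 0.32 at 10 weeks and 0.20 at 18 weeks, and -0.01 over all genes at both.

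In fibroblasts, 8 of the 10 estimates were positive at 10 weeks and 7 at 18 weeks, with medians of 0.62 and 0.23 on the log2 scale (-0.02 and 0.01 over all genes). At 10 weeks Chad was 48.5 and 60.5 CPM in Smad3+/+ and 152 and 185 CPM in Smad3SmKO. Cytl1 was 463 and 560 against 943 and 790 CPM, Cilp2 2.94 and 5.06 against 16.5 and 7.49 CPM, and Spp1 29.2 and 92.8 against 223 and 110 CPM. For these 4 genes both Smad3SmKO libraries lay above both controls, and 23.4% of all genes did not overlap at 2 against 2. The log2 fold changes were 1.61 (SE 1.09) for Chad, 0.75 (SE 0.62) for Cytl1, 1.55 (SE 0.99) for Cilp2 and 1.40 (SE 1.27) for Spp1, and the 95% intervals of all 4 included 0. At 18 weeks the 95% intervals of these 4 reached from -1.62 to 1.41, -0.83 to 0.97, -1.43 to 1.36 and -1.50 to 2.08, in the same order.

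Tnfrsf11b in fibroblasts at 18 weeks was 65.5, 77.1, 46.2, 47.8 and 98.6 CPM in Smad3+/+ replicates 1 to 5 and 45.5, 166 and 309 CPM as lowest, median and highest in Smad3SmKO. Of the 7, 5 lay above every control and 1 below all of them, and 3 of 4 batches were higher. The log2 fold change was 0.72 (SE 0.32, unadjusted p = 0.0425 and Benjamini-Hochberg adjusted p = 1.0 by edgeR's quasi-likelihood test). At 10 weeks it was 194 and 100 CPM against 182 and 225 CPM. Runx2 was 5.25, 4.63, 8.56, 5.95 and 4.63 CPM in the controls and 5.88, 9.33 and 10.2 CPM in Smad3SmKO, with 4 of 7 above every control and 4 of 4 batches higher. Its log2 fold change was 0.59 (SE 0.22, unadjusted p = 0.021 and Benjamini-Hochberg adjusted p = 1.0 by edgeR's quasi-likelihood test), and it kept a value between 0.45 and 0.72 when any 1 of the 16 libraries was left out. Mgp was 20730, 19880, 15410, 21160 and 16060 CPM in the controls and 13350, 23070 and 51520 CPM in Smad3SmKO (log2 fold change 0.26, 95% interval -0.37 to 0.90). Sox9 was 95.3, 110, 177.4, 107 and 115 CPM and 47.3, 106 and 147 CPM (-0.11, 95% interval -0.68 to 0.46). Cilp (21.3 to 109 CPM in the controls and 0.21 to 63.4 CPM in Smad3SmKO) and Ucma (0.822 to 11.8 and 0 to 28.8 CPM) also overlapped. For none of the 10 genes were the genotypes separate in fibroblasts at 18 weeks, and for 0.0892% of all genes they were.

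In leukocytes, the 8 genes tested had a median log2 fold change of 0.37 at 10 weeks and -0.64 at 18 weeks (-0.06 and 0.01 over all genes). The 2 with an unadjusted p under 0.05 were Cilp at 10 weeks, with 0 and 10 UMIs in Smad3+/+ and 0 in both Smad3SmKO libraries, and Chad at 18 weeks, with 93 UMIs in Smad3+/+ replicate 5 and no more than 5 in any other control, and 155 UMIs in Smad3SmKO replicate 5 and no more than 9 in any other library of that group. No gene of the 8 had separate genotypes at 10 weeks or at 18 weeks, where 32.0% and 0.0602% of all genes did. For Spp1 the log2 fold change was -0.54 at 18 weeks (95% interval -2.81 to 1.73). None of the 63 listed pathway genes was called by genotype in VSMCs (40 tested), fibroblasts (56 tested) or leukocytes (34 tested) at either time. At an unadjusted p under 0.05 there were 1, 4 and 0 of them at 10 weeks (1.88%, 0.918% and 2.99% of all genes tested). At 18 weeks there were 5, 1 and 2 (4.81%, 2.65% and 1.63% of all genes tested).

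The genes whose level over the 16 libraries was most like that of each member are given as a description, by Pearson's r of log2(CPM + 1) in the cell type where the member was highest, among 5353 to 5620 genes with a mean of at least 20 CPM. The libraries share genotype, batch and depth, so r over them carries no test. Chad and Cytl1 were each other's likeness (r = 0.894), and Mrps5 was nearest to Cytl1 (r = 0.909). Tnfrsf11b went with Nov (r = 0.891), Hspb7 (r = 0.866) and the smooth muscle actin gene Acta2 (r = 0.847), and Mgp with the tropomyosin gene Tpm2 (r = 0.886). VSMC markers varied between 563 and 11860 CPM in the same fibroblasts, and their part in these values was not tested. Cilp went with Lsp1 (r = 0.93), Sox9 with Gm1673 and S100b (both r = 0.876), Ucma with Fam76a (r = 0.852), Runx2 with Spred1 (r = 0.787) and Cilp2 with 1500015O10Rik (r = 0.76). Spp1 in leukocytes went with Il1b (r = 0.89) and Arg1 (r = 0.882), which encode interleukin 1 beta and arginase 1.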

How the data were processed

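Single cells of 16 aortas were measured with 10x 3′ chemistry, and the authors deposited filtered matrices of raw UMI counts per gene and cell. Submitters' processing notes name Cell Ranger 6, Seurat 4 and mm10, while the file headers name Cell Ranger 4.0.0. Which strand was counted is not given in the sources used here. The deposited 66349 cells (12539539 to 52843031 UMIs per library) were filtered to over 600 and under 6000 genes, over 2000 and under 50000 UMIs and under 25% mitochondrial UMIs, which kept 50858. Groups came from the labels. No doublet caller was run, and cells in 2 gates were removed as an alternative. The VSMC and fibroblast gates exclude each other, so that alternative removed only cells that also passed the leukocyte gate. It could not find doublets of a VSMC and a fibroblast.

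UMIs were summed per library and cell type, and genes with at least 50 UMIs in all were tested with edgeR 4.0.16 (R 4.3.3, TMM, quasi-likelihood F-test, Benjamini-Hochberg over all genes tested). Genotype models held batch and genotype within time over all 16 libraries. Comparisons of cell types and of VSMC sides held the library as a block. The procedure was tested on simulated data. DESeq2 1.42.0, other scaling, filters and gates, and leaving out each library were alternatives. The replicates are separate mice, 1 per library. All 10 genes were named in every comparison, from the pathway lists up to 8 genes with the largest change among those called, and for each of the 10 up to 3 most similar genes. The 10 genes and the lists were chosen with earlier results of these data known.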

Additional observations from a re-analysis of the deposited data

Results flagged for a closer look

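In 50 sets of libraries (1 gene, cell type and group with at least 5 libraries), 20 held a library whose gap to the next was beyond Dixon's 95% critical value. For separate sets of normal values, chance gives about 1 in 20 sets, or 2.5. These sets are CPM that include zeros, and they share the same libraries. That rate therefore need not hold, and the flags only mark libraries for a closer look. Smad3+/+ replicate 1 at 18 weeks gave 6 of them and Smad3SmKO replicate 7 at 18 weeks gave 5. All values are CPM at 18 weeks.

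Smad3+/+ replicate 1 was the highest control for Spp1 in VSMCs (24.5, next 3.93), fibroblasts (782, next 224) and leukocytes (1259, next 283). It was also the highest for Chad in VSMCs (47.2, next 4.06), Cytl1 in VSMCs (90.5, next 7.14) and Cilp2 in fibroblasts (17.6, next 5.33). Smad3SmKO replicate 7, with 196 fibroblasts and 13 leukocytes, was the highest of its group for Mgp in VSMCs (14000, next 8514), Spp1 in fibroblasts (10430, next 557.5) and in leukocytes (10950, next 4194), and Cytl1 in VSMCs (27.1, next 12.98), and the lowest for Cytl1 in fibroblasts (80.1, next 482).

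Smad3+/+ replicate 5 was the highest for Chad (37.8, next 1.46) and Tnfrsf11b (44.3, next 2.05) in leukocytes. Smad3SmKO replicate 5 was the highest for Chad in leukocytes (26.1, next 2.71), Chad in VSMCs (0.899, next 0.31) and Cilp2 in fibroblasts (18.4, next 6.83). Smad3+/+ replicate 3 was the highest for Sox9 in fibroblasts (177.4, next 115) and the lowest for Tnfrsf11b in VSMCs (41.0, next 58.7). Smad3SmKO replicate 1 was the highest for Runx2 in VSMCs (8.66, next 3.26, from 4 UMIs), and Smad3SmKO replicate 2 for Ucma in fibroblasts (28.8, next 7.37).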

How the results depend on the processing

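Calls of the 10 genes between fibroblasts and VSMCs, and between leukocytes and fibroblasts, kept their side of the threshold in 8 alternatives and without each library, and those called kept their direction. Runx2, not called between leukocytes and fibroblasts, lay between -0.29 and 0.16. With no filter on low counts, 1 gene was called by genotype in VSMCs at 10 weeks (Spp1), 4 at 18 weeks (Chad, Cytl1, Sox9 and Spp1) and 1 for the difference between times (Chad), and in leukocytes 2 at 18 weeks (Chad and Cytl1) and 1 for the difference (Cytl1). That setting called 51, 134 and 70 genes in all in VSMCs and 46, 71 and 81 in leukocytes. The main setting called 0, 4 and 1 of 12569 in VSMCs and 0 of 11629 in leukocytes. In VSMCs at 18 weeks, 1 of the 10 (Chad) was called with 30 min digestions alone and with shared barcodes removed, an alternative chosen after seeing the data. The alternatives there called 1 to 134 genes in all. Leaving out 1 library gave 0 to 1 there, Chad without Smad3+/+ replicate 4 (-6.94, edgeR's quasi-likelihood test, adjusted p = 0.0121) and Spp1 without Smad3+/+ replicate 1 (3.57). Stricter gates called 4 of the 10 between VSMC sides (Sox9, Tnfrsf11b, Spp1 and Cytl1), and the alternatives there tested 4 to 10 of them. The share of all genes called with stricter gates is not given here. All genes called between the sides ranged from 1327 to 2712, against 2544 of 12251 (20.8%) in the main setting. Between leukocytes and VSMCs, Sox9 reversed to -2.76 without cells in 2 gates, and Chad and Cilp2 were called without Smad3+/+ replicate 1 at 18 weeks (adjusted p = 0.000357 and 0.0193). Genes called in VSMCs at 18 weeks ranged from 2 to 8 without 1 library, and in leukocytes from 0 to 8. The median of all genes between fibroblasts and VSMCs ranged from 0.08 to 0.29. The causes were not tested. At 2 against 2 libraries, and with 22 VSMCs in the smallest library, small differences were not detectable. No paired analysis of the genotypes was possible because the labels pair no mice and carry no replicate numbers (those used here follow accession order). Genotypes were therefore fitted with batch as a term only. Cell types and VSMC sides of the same library were compared with the library as a block.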
